A study of Mus musculus with 12 samples.

Results

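The quantity reported is the interaction of a Myc and a TTP transgene in mouse bone marrow cells, which asks whether the transcript level that accompanies TTP depends on the presence of Myc. For each gene it is the log2 difference of Eµ-Myc;Eµ-TTP-1 minus Eµ-Myc cells, minus the log2 difference of Eµ-TTP-1 minus wild-type cells. It uses all 12 arrays of the series, 3 in each of 4 groups, and was computed for 10287 of the 18194 genes with a single symbol on the array. These are the genes above log2 4, used as a detection floor, on at least 3 arrays. A value of 0 means that the log2 effects of the transgenes add up. A positive value means that the Eµ-Myc;Eµ-TTP-1 cells lie above that sum, and a negative value that they lie below it.

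Eµ-Myc;Eµ-TTP-1 mice (here Myc TTP) carried both transgenes, Eµ-Myc mice (Myc) and Eµ-TTP-1 mice (TTP) carried 1 each, and wild-type mice carried none. All were littermates aged 4-6 weeks on a background that was 94% C57BL/6, and the groups with Myc were precancerous. Cells were taken from bone marrow with magnetic beads against CD45R (B220), and total RNA of each sample went onto 1 Affymetrix MOE430 2.0 array. Both transgenes are named for Eµ, the immunoglobulin heavy chain enhancer, which is active in the B lineage, so cells of other lineages in the sample are not where they are meant to be expressed. The suffix of TTP-1 is not explained in the labels, and they do not say whether animals were pooled. The arrays of a group are called biological replicates there.

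MYC is a transcription factor that dimerises with MAX, binds E-box DNA and drives ribosome production, metabolism and division, and its excess under Eµ leads to B-cell lymphoma in mice. Tristetraprolin (TTP), encoded by Zfp36, binds AU-rich elements in mRNAs, recruits the CCR4-NOT deadenylase and so shortens the life of many cytokine, growth and early-response transcripts. The contrast between the groups asks where the effects of a transcription factor and of an mRNA-decay protein are not simply additive.

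Some arrays stood apart from their groups, and their labels bear on every value that follows. Myc had a log2 intensity of 11.82, 12.73 and 13.37 on the Myc TTP arrays, 13.71, 13.92 and 12.99 on Myc arrays, 10.05, 10.39 and 13.47 on TTP arrays and 9.65, 9.68 and 12.65 on wild-type arrays. The arrays labelled TTP 3 and wild type 3 thus lay within the range of the Myc-carrying arrays. The female-specific Xist RNA and transcripts of the Y chromosome were both above the floor on 4 of the 4 arrays numbered 3 and on 0 of the other 8. On Myc 3 this rests on 1 of 3 Y-linked genes, Eif2s3y at 5.05, with Kdm5d at 2.69 and Uty at 2.59 below the floor. Myc 1 alone had Xist below the floor, at 1.86, with Kdm5d at 9.33 and Eif2s3y at 9.72. A fit without the arrays numbered 3 keeps Myc 1, so these sex-linked levels differ within the Myc group there. Of 7 defining B-lineage genes 6 were found, among them Cd79a, Pax5 and Ebf1, and all 6 were above the floor on every array. Transcripts of neutrophils, erythroid cells and other marrow cells were also present at levels that differed between arrays of a group, while the T-cell receptor genes Cd3e and Cd3g were above the floor on 0 arrays. The labels are used as given, and the fit without the 4 arrays numbered 3, which leaves 2 arrays a group, stands beside the results below. These arrays were chosen as those that stand apart, so the smaller spread without them follows in part from that choice.

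Over all genes the interaction was shifted to positive values, and no gene passed the test. Its median was 0.34 log2 units (quartiles 0.13 and 0.53), and 84.5% of genes lay above 0. In limma's moderated fit over 4 group means, 0 of 10287 genes had a Benjamini-Hochberg adjusted p under 0.05 and so were called (0% of those tested), with a smallest adjusted p of 0.358. An unmoderated linear model also called 0. At an unadjusted p under 0.05 there were 1313 genes with a positive interaction (12.8%) and 38 with a negative one (0.369%). Leaving out the array Myc TTP 1 gave 663 positive genes and leaving out wild type 2 gave 835. The negative genes numbered 64 without Myc TTP 2, 62 without Myc 3, 115 without TTP 3 and 87 without wild type 3.

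The level of whole arrays also differed between the groups. The median log2 intensity of the tested genes was 9.38, 9.21 and 9.10 on the Myc TTP arrays, 8.96, 8.98 and 8.96 on Myc arrays, 9.25, 9.31 and 8.93 on TTP arrays and 9.14, 9.29 and 9.24 on wild-type arrays. Setting every array to a common median brings the median interaction close to 0 by construction. It therefore cannot tell a broad difference between the groups from a difference in array scaling. With this setting the median interaction was 0.01 and 0 genes were called (smallest adjusted p 0.318). At an unadjusted p under 0.05 there were 148 positive (1.44%) and 210 negative genes (2.04%). A gene near 0.34 in the deposited values is a gene near the middle of all genes. List medians are given below on both scalings where their direction differs. The median standard error of an interaction was 0.32, against 0.22 for a single difference between groups, and the median half-width of its 95% interval was 0.70 log2 units.

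**Figure D1:**
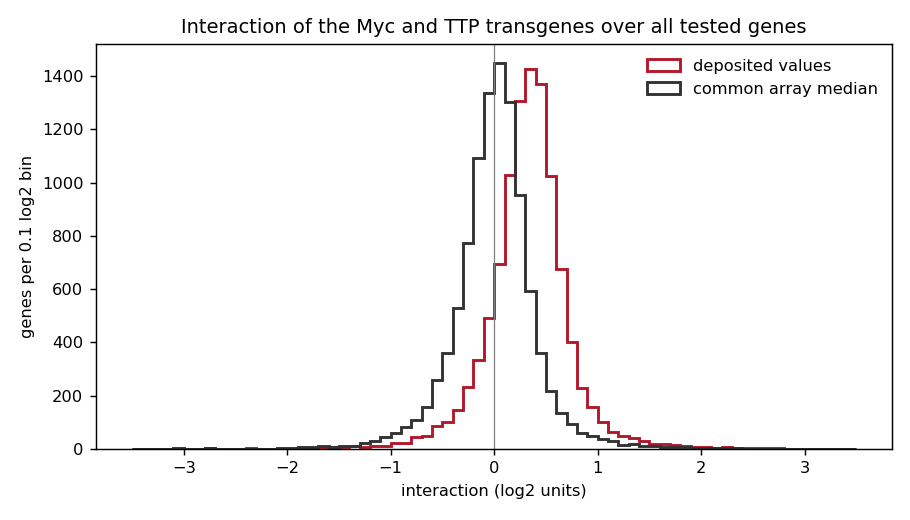
The histogram counts the 10287 tested genes by interaction in log2 units (x axis, bins of 0.1), with deposited values in red and values after a common array median in grey. The red distribution has its median at 0.34 and the grey one at 0.01.

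The 10 genes with the smallest p among positive interactions were Slc37a1, Pogk, Psme4, Rsph1, Ypel2, Ppp6r3, Rpp21, Med31, Eaf2 and Hes6. Their interactions ran between 0.66 and 1.80, with an adjusted p of 0.358 for each. In these 10 genes the mean of Myc TTP was above that of Myc, the mean of TTP was below that of wild type, and the mean of Myc was below that of wild type. The Myc TTP mean was above the TTP mean in all 10. As these genes were picked by the p of the same contrast, this common shape describes the choice and is not a test.

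Slc37a1, a sugar-phosphate and phosphate exchanger of the endoplasmic reticulum, had the largest of these 10 interactions. Its log2 intensity was 8.07, 8.10 and 8.06 on the Myc TTP arrays, 6.55, 6.69 and 6.77 on Myc arrays, 7.80, 7.84 and 7.05 on TTP arrays and 7.94, 8.10 and 7.84 on wild-type arrays. The Myc TTP arrays lay beside wild type, the Myc arrays were the lowest of all, and TTP 3 was low in its group. The sum of the single effects would put Myc TTP at 6.27, and the measured mean was 8.08 ± 0.02 (SD, n = 3). Myc TTP minus Myc was 1.41 ± 0.21 (SE), TTP minus wild type was -0.40 ± 0.21, and the interaction was 1.80 ± 0.30 (95% interval 1.14 to 2.47). With a common median it was 1.48, and without the arrays numbered 3 it was 1.67 (adjusted p = 0.0201).

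Pogk encodes a protein with a KRAB domain and a domain of pogo transposases. It had 8.05, 7.90 and 8.01 on the Myc TTP arrays, 7.18, 6.87 and 6.95 on Myc arrays, 7.39, 6.99 and 7.29 on TTP arrays and 7.53, 7.65 and 7.76 on wild-type arrays. Each transgene alone went with a lower level, without overlap with wild type, and with both transgenes the level was above wild type on all 3 arrays. The interaction was 1.41 ± 0.24, and another probe set of the gene gave 0.21. Eaf2, a partner of the transcription elongation factor ELL, was also lower with each transgene alone than in wild type. It had 8.35, 8.20 and 8.17 on the Myc TTP arrays, 7.69, 7.90 and 7.90 on Myc arrays, 8.01, 7.47 and 7.75 on TTP arrays and 8.43, 8.70 and 8.50 on wild-type arrays. With both transgenes it lay above either alone and below wild type. The TTP difference of Eaf2 was 0.41 ± 0.17 with Myc and -0.80 ± 0.17 without it, and the interaction was 1.20 ± 0.24.

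Psme4, which encodes the PA200 activator of the proteasome, had a smaller interaction with a smaller error, 0.86 ± 0.15. Its values were 12.80, 12.60 and 12.61 on the Myc TTP arrays, 11.78, 11.84 and 12.11 on Myc arrays, 12.30, 12.17 and 12.30 on TTP arrays and 12.34, 12.28 and 12.45 on wild-type arrays. The Myc TTP arrays were above and the Myc arrays below all others. Rsph1, a component of the radial spokes of motile cilia, had an interaction of 1.50 ± 0.27, with 10.11, 9.76 and 9.88 on the Myc TTP arrays, 8.71, 8.32 and 8.91 on Myc arrays, 9.74, 9.20 and 9.31 on TTP arrays and 9.58, 9.60 and 9.77 on wild-type arrays. The other 5 were Ypel2 (1.03 ± 0.20), the RNase P subunit gene Rpp21 (0.93 ± 0.18), the Mediator subunit gene Med31 (0.78 ± 0.16), Ppp6r3, a regulatory subunit of protein phosphatase 6 (0.75 ± 0.14), and Hes6, a member of the Hairy and Enhancer of split family (0.66 ± 0.14). After a common median the 10 values ran between 0.34 and 1.48. Of these, 9 had a limma unadjusted p under 0.05, against 1.44% of all genes as positive. Without the arrays numbered 3, Slc37a1, Psme4 (adjusted p = 0.0196), Ypel2 (0.0279) and Rsph1 (0.0432) were called, against 2.20% of all genes as positive. The genes were picked by the p of the same contrast and these fits reuse its arrays. Both counts are therefore a description and not a check.

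Negative interactions had larger p-values, and the 10 genes leading them were Fgd2, S100a6, ND5, Hmgb2, Sh3pxd2a, Kcnn4, Rpl22l1, Stk24, Hspa12a and Csf1r, with interactions between -2.73 and -0.52. In these 10 the TTP difference was negative with Myc and positive without it (0.00 when rounded in Fgd2). A common median lowers the interaction of every gene by the same amount, so these values had to become more negative. They then ran between -3.06 and -0.84, and all 10 had a limma unadjusted p under 0.05, against 2.04% of all genes as negative. As the genes were picked by the p of the same contrast, this is a description and not a check. Each adjusted p was again 0.358 in the deposited values.

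S100a6, a calcium-binding protein also called calcyclin, had the largest negative interaction of the 10. Its log2 intensity was 8.37, 7.91 and 7.98 on the Myc TTP arrays, 9.95, 11.41 and 9.84 on Myc arrays, 11.06, 11.48 and 9.62 on TTP arrays and 9.88, 11.02 and 10.004 on wild-type arrays. The Myc TTP arrays were the lowest 3 of the 12, and the other groups overlapped and varied by over 1 log2 unit within each group. Myc TTP minus Myc was -2.31 ± 0.53, TTP minus wild type was 0.42 ± 0.53, and the interaction was -2.73 ± 0.74. Without the arrays numbered 3 it was -3.36 (adjusted p = 0.0382), and with a common median as well the adjusted p was 0.0568.

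Fgd2, an exchange factor for the GTPase CDC42, had the smallest p of the negative genes. It measured 8.51, 8.02 and 8.21 on the Myc TTP arrays, 9.10, 9.27 and 9.04 on Myc arrays, 8.52, 8.61 and 8.44 on TTP arrays and 8.35, 8.66 and 8.55 on wild-type arrays. The Myc arrays stood above all others, while the remaining groups overlapped. Its interaction was -0.89 ± 0.23. Kcnn4, a calcium-activated potassium channel, had 8.87, 9.43 and 9.68 on the Myc TTP arrays, 10.14, 10.10 and 9.59 on Myc arrays, 9.67, 10.001 and 9.29 on TTP arrays and 8.91, 9.13 and 9.30 on wild-type arrays. Each transgene alone went with a higher mean for Kcnn4 than in wild type, and the Myc TTP mean of 9.33 lay near the wild-type mean of 9.11. The interaction was -1.16 ± 0.36, and another probe set of the gene gave -0.49. Without the arrays numbered 3 the probe set used had -1.79 and was called (adjusted p = 0.0211).

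The mitochondrially encoded complex I subunit ND5 had an interaction of -0.60 ± 0.17, the chromatin protein Hmgb2 -1.05 ± 0.31 (-0.38 and -0.07 at its other probe sets) and Rpl22l1, a paralogue of the ribosomal protein Rpl22, -0.52 ± 0.16. The kinase gene Stk24 had -0.58 ± 0.18, and its other probe set gave 0.25. The podosome scaffold gene Sh3pxd2a had -1.38 ± 0.42 at levels near the floor on the Myc TTP arrays. For Hspa12a, of the HSP70 family, the means of Myc TTP, TTP and wild type were below the floor, so its -1.74 ± 0.56 describes a signal of 5.25, 6.01 and 4.30 on Myc arrays against values at the floor. Csf1r, the receptor for the macrophage growth factor CSF1, had -1.67 ± 0.54, whereas its 2 other probe sets gave 0.65 and 0.48. Among other probe sets above the floor, 9 of 10 for the positive genes and 3 of 6 for the negative genes had the sign of the probe set used.

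**Figure D2:**
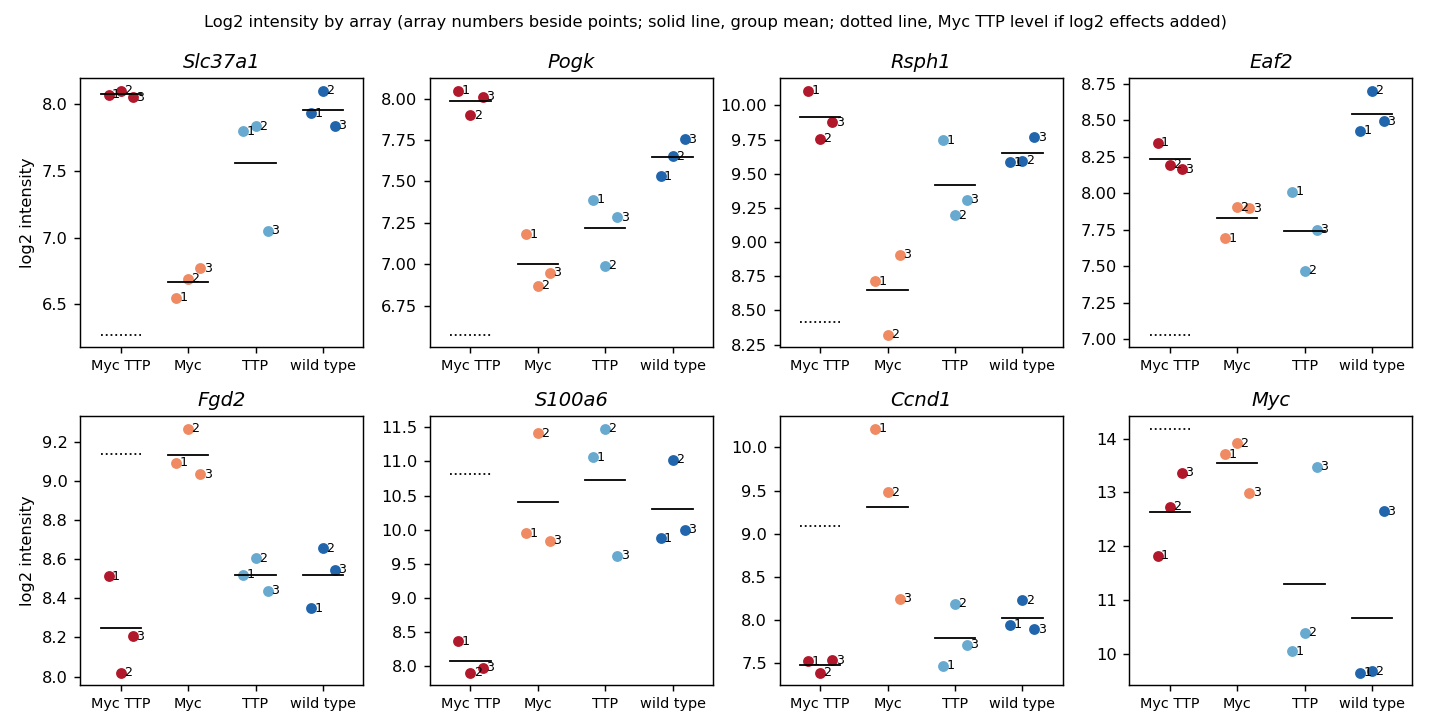
Each panel plots the log2 intensity of a gene (y axis) on the 12 arrays, in the order Myc TTP, Myc, TTP and wild type, with array numbers beside the points. Solid lines are group means, and the dotted line is the Myc TTP level if log2 effects added, from which the measured Myc TTP mean of Slc37a1 (8.08 against 6.27) lies upward and that of S100a6 (8.09 against 10.82) downward.

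The promoters of these genes were searched for the E-box CACGTG, the motif that MYC and MAX bind, since Myc is a factor of the design. The motif is a palindrome, so both strands read the same. In windows of 300 bases around the RefSeq start of each gene (GRCm38.p6), 2 of the 8 positive genes with a window held it, Pogk and Med31, as did 2 of the 6 negative genes with a window, S100a6 and Kcnn4. Among all tested genes 12.3% of 8440 with a window held it, and among all windows 7.15% of 32851. The windows of Pogk (chr1:166409779-166410078, minus strand) and S100a6 (chr3:90612644-90612943, plus strand) are shown 5′ to 3′ as an example from each direction, with the E-box in capitals.
Pogk: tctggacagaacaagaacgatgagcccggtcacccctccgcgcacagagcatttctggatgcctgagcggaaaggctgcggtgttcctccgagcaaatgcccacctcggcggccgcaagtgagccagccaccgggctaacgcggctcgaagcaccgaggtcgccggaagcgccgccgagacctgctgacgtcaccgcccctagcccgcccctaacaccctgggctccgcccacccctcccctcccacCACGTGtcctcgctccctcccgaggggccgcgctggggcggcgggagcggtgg
S100a6: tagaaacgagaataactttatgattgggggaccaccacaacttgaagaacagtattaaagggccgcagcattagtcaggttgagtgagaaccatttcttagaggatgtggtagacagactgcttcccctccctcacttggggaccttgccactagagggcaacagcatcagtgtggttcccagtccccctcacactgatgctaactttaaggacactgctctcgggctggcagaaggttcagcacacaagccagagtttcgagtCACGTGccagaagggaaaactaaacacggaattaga
A match in a window is a description of its letters and says nothing of binding, and the interactions of both directions included genes with and without it.

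Across genes, the TTP difference measured with Myc had a low correlation with that measured without it. Pearson's r between the 2 sets of differences over the 10287 genes was 0.0954, and 0.252 without the arrays numbered 3, where the sets share no array but all genes share arrays within a set. The Myc difference with TTP and the Myc difference without it had r = 0.878 over the same genes, and 0.893 without the arrays numbered 3. The TTP difference had a median of 0.27 with Myc and -0.06 without it. Over genes its SD was 0.36 with Myc and 0.23 without it. That of the Myc difference was 0.73 with TTP and 0.85 without it. The median standard error of a single difference was 0.22, close to the SD of the TTP difference without Myc. Error of that size alone gives a low r, so the r of the TTP differences does not show whether they depend on Myc.

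**Figure D3:**
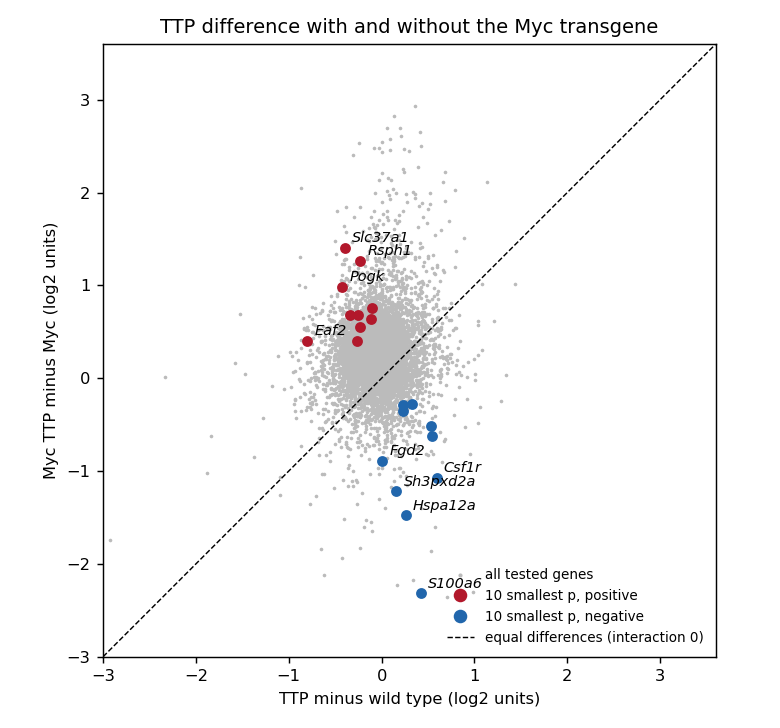
Each grey point is 1 of 10287 genes, with the TTP difference without Myc on the x axis and with Myc on the y axis (log2 units), and the dashed line marks an interaction of 0. The 10 positive genes with the smallest p (red) lie above the line and left of 0, and the 10 negative ones (blue) lie below it and at or right of 0.

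The transgenes' own genes gave negative values that did not pass the test. For Myc the interaction was -1.55 ± 1.35 with all arrays and -2.09 ± 0.36 without those numbered 3 (adjusted p = 0.0229). With those arrays left out and a common median as well, the adjusted p was 0.0563. On arrays 1 and 2, Myc TTP cells had less Myc signal than Myc cells. Zfp36 measured 7.47, 8.62 and 9.18 on the Myc TTP arrays, 9.28, 9.34 and 9.997 on Myc arrays, 9.88, 9.89 and 9.78 on TTP arrays and 10.70, 9.80 and 9.84 on wild-type arrays. The Myc TTP arrays were the lowest, without overlap with Myc. The interaction of Zfp36 was -0.85 ± 0.56, and which part of the mRNA the transgene carries was not given, so this probe set does not check the TTP labels. Its relatives, which also bind AU-rich elements, had -0.34 ± 0.47 for Zfp36l2 and -0.01 ± 0.43 for Zfp36l1, and the sign of Zfp36l1 changed with the arrays and the probe set used.

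Of 18 tested mRNAs listed as reported AU-rich targets of TTP, 0 had a positive and 1 a negative interaction with an unadjusted p under 0.05, against 12.8% and 0.369% of all genes. Their median was 0.22, against 0.34 for all genes, and -0.11 after a common median. Leaving out 1 array at a time gave medians between -0.17 and 0.57, with the negative one without TTP 3. The exception was Ccnd1, the D-type cyclin that drives entry into the cell cycle. Its log2 intensity was 7.52, 7.39 and 7.54 on the Myc TTP arrays, 10.22, 9.48 and 8.25 on Myc arrays, 7.47, 8.19 and 7.71 on TTP arrays and 7.94, 8.23 and 7.89 on wild-type arrays. The Myc arrays were the highest 3, although Myc 3 lay beside wild type 2, and all 3 Myc TTP arrays lay below them. The interaction was -1.60 ± 0.56, with -1.76 and -1.79 at its other probe sets, and it was called without the arrays numbered 3 (-2.14, adjusted p = 0.0387) but not with a common median as well (0.0502). Other listed targets gave -0.56 for the hypoxia factor Hif1a, -0.53 for the cytokine Il1b and -0.00 for the cytokine Tnf, while the growth factor Vegfa gave 0.57 and the repressor Bcl6 0.90. Bcl6 was also called without the arrays numbered 3 (adjusted p = 0.0298).

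The enzymes of mRNA deadenylation, decapping and decay, through which TTP acts, had a median of 0.39 over 37 tested genes. Of these 37 genes 11 had a positive interaction with an unadjusted p under 0.05, a larger share than the 12.8% of all genes. After a common median the median was 0.06 and 0 of the 11 remained. The deadenylase Cnot8 had 0.60 ± 0.15 and the decapping scaffold Edc4 0.57 ± 0.18, but another Cnot8 probe set gave -0.33. The deadenylase Cnot7 went the other way, with the lowest value of this list, -0.73. In the network of MYC partners and antagonists 4 of 12 had a positive interaction with an unadjusted p under 0.05, against 12.8% of all genes, and 2 of 12 after a common median, against 1.44%. The 4 were led by the MAX-binding antagonist Mxd4 (0.93 ± 0.27) and by Zbtb17, the MYC partner MIZ1 (0.77 ± 0.24). Mxd4 gave 0.97 and 0.86 at its other probe sets above the floor, and 0.61 after a common median.

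Growth genes, which MYC is known to drive, had medians below that of all genes with all 12 arrays, an order that depended on single arrays. Of 45 ribosome biogenesis factors 0 had an unadjusted p under 0.05, against 12.8% of all genes as positive and 0.369% as negative. Their median was 0.17 and 6 were above the all-gene median. With a common median it was -0.15, and without the arrays numbered 3 it was -0.11. Without TTP 3 the median was 0.46 against 0.24 for all genes, without wild type 1 it was 0.41 against 0.38, and without wild type 2 it was 0.33 against 0.32. It was below 0 without Myc 3 (-0.02), TTP 1 (-0.01) or wild type 3 (-0.26). Nop14, of the small-subunit processome, had the highest value of this list (0.57 ± 0.41) and Noc2l, a nucleolar factor, the lowest (-0.43). The 24 genes of nucleotide, folate and polyamine synthesis had a median of 0.19 and the 16 of glycolysis and lactate transport 0.20, both with 0 genes under that threshold. After a common median these medians were -0.14 and -0.12, and without the arrays numbered 3 they were -0.04 and -0.05. Both were also below 0 without wild type 3 alone (-0.14 and -0.06). Without TTP 3 the nucleotide median was 0.44, and without wild type 1 it was 0.39. Ribonucleotide reductase Rrm1 had -0.38 ± 0.22, the folate enzyme Mthfd2 0.72 ± 0.43 and the glucose transporter Slc2a1 -0.53 ± 0.25. Other probe sets above the floor gave -0.04 for Rrm1, 0.24 for Mthfd2, and -0.12 and 0.36 for Slc2a1.

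The 17 cholesterol genes had the lowest median of the lists with at least 9 tested genes in the deposited values, 0.11, and -0.22 after a common median, where 3 had a negative interaction with an unadjusted p under 0.05 (2.04% of all genes). Leaving out 1 array at a time gave medians between -0.01 (without wild type 2) and 0.22. Idi1, the isomerase of isopentenyl diphosphate, had -1.42 ± 0.67, and Hmgcs1, the synthase before the rate-limiting step, had -0.39 ± 0.19. Idi1 was 8.44, 9.12 and 9.52 on the Myc TTP arrays, 10.34, 10.36 and 9.83 on Myc arrays, 7.96, 8.32 and 10.04 on TTP arrays and 8.24, 8.37 and 8.90 on wild-type arrays. The Myc TTP arrays lay below the Myc arrays, and TTP 3 lay with the Myc-carrying arrays. Oxidative phosphorylation had a median of 0.22 over 23 genes and -0.10 after a common median, and 5 positive genes under the threshold (12.8% of all genes) became 0. Among them were Uqcrc1 of complex III (0.42 ± 0.16) and Atp5c1 of the ATP synthase (0.35 ± 0.13).

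Cell-cycle lists stayed near the all-gene median, at 0.31 for 30 DNA replication genes and 0.32 for 25 mitosis genes. After a common median these were -0.0079 and -0.0026, and the 7 mitosis genes with a positive interaction under an unadjusted p of 0.05 (12.8% of all genes) became 0. The kinetochore genes Cenpf and Ndc80 had 0.54 ± 0.17 and 0.56 ± 0.22. DNA ligase Lig1 had 0.46 ± 0.15 and the licensing factor Cdt1 0.36 ± 0.16. Among 19 G1 regulators E2f2 had 0.59 ± 0.20, while Ccnd1 and the kinase inhibitor Cdkn1c (-1.17) were the 2 negative genes under the threshold (0.369% of all genes). The medians were 0.28 for 20 p53 genes and 0.23 for 13 genes of the BCL2 family, and -0.05 and -0.09 after a common median. Mdm2, the ubiquitin ligase of p53, had 0.73 ± 0.35, and Bcl2l2, a survival factor of the BCL2 family, 0.93 ± 0.45.

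All 21 tested genes of the pro-B and pre-B stages had an interaction above 0, as did 84.5% of all genes. Their median was 0.83, and 0.51 after a common median, when 15 of 21 were above 0. It was 0.38 without TTP 3 and 0.47 without Myc 2, the lowest values with 1 array left out. With all arrays 1 of 21 had a positive interaction with an unadjusted p under 0.05, against 12.8% of all genes. This was Irf4, a transcription factor of the pre-B to immature B step (0.87 ± 0.34). The highest values were 2.08 for Dntt, the terminal transferase of V(D)J recombination, 1.74 for the surrogate light chain gene Vpreb1 and 1.56 for the interleukin-7 receptor gene Il7r. Vpreb1 measured 11.64, 11.33 and 10.84 on the Myc TTP arrays, 8.37, 8.30 and 11.73 on Myc arrays, 13.29, 13.66 and 11.60 on TTP arrays and 13.23, 13.06 and 12.07 on wild-type arrays. The array labelled Myc 3 lay above the Myc TTP arrays, and TTP 3 and wild type 3 were low in their groups. Without these arrays Vpreb1 had 2.82 ± 0.22 (adjusted p = 0.000595), and 10 of the 21 genes were called as positive, against 2.20% of all genes. Of these 2, Vpreb1 and the ETS factor Erg, were also called with a common median, against 0.661% of all genes.

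Other B-lineage groups were closer to the whole. The median was 0.38 for 19 pan-B genes and 0.29 for 24 genes of mature B cells and receptor signalling, with 2 positive genes in each under an unadjusted p of 0.05 (12.8% of all genes). The mature B-cell median was -0.03 after a common median and 0.01 without TTP 3. The E2A gene Tcf3 had 0.56 ± 0.14, Ikzf1, which encodes Ikaros, 0.45 ± 0.18, the kinase Btk 0.39 ± 0.16 and the phospholipase Plcg2 0.32 ± 0.14. After a common median the Plcg2 value was 0.00, and with the arrays numbered 3 left out as well it was -0.06. Plasma cell genes had a median of 0.42 over 12 genes, with Derl3, of protein degradation at the endoplasmic reticulum, at 0.92 ± 0.30 and the surface proteoglycan Sdc1 at 1.05 ± 0.37.

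Interferon and NF-κB genes also had medians above that of all genes, with wide errors. The median was 0.79 over 23 type I interferon response genes, 18 of which were above the all-gene median, and 0.48 over 15 NF-κB genes. Without TTP 3 these medians were 0.29 and 0.27, against 0.24 for all genes. In the list of interferon genes the highest median with 1 array left out was 1.18. Stat2, a subunit of the interferon-activated factor ISGF3, had 1.31 ± 0.52, and Bst2, the tetherin that holds back budding virus, had 0.99 ± 0.38. The NF-κB inhibitor gene Nfkbib had 0.57 ± 0.22 and the subunit gene Rel 0.48 ± 0.33. Without the arrays numbered 3, 2 interferon genes (Irf7 and Rtp4) and 3 NF-κB genes (Bcl3, Nfkbia and Tnfaip3) were called as positive out of 23 and 15, against 2.20% of all genes, and 0 of these with a common median as well.

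Transcripts of other marrow cells were among the wide interactions, although the 2 largest by size were not. These were Ints5, a subunit of the Integrator complex, with -3.29 ± 1.56, and the zinc-finger gene Zcchc10 with -3.06 ± 1.01, both named after their values were seen. In both, a single array stood apart from its group. Ints5 measured 7.53, 12.08 and 12.29 on the Myc TTP arrays, where Myc TTP 1 stood apart. Zcchc10 measured 6.19, 5.54 and 8.85 on TTP arrays, where TTP 3 stood apart. Its interaction was -2.14 without TTP 3 and wild type 3, and -2.48 without all arrays numbered 3. Of the 40 largest interactions by size, 32 were positive and 8 negative, where 84.5% of all genes lay above 0. Among these 40, 11 were in the neutrophil list, which held 17 of the 10287 tested genes. A limma unadjusted p under 0.05 was found for 10 of the 40, against 12.8% of all genes as positive and 0.369% as negative. The neutrophil list had a median of 2.16 over 17 tested genes, with 0 under that threshold, against 12.8% of all genes as positive and 0.369% as negative. The list median was 0.84 without Myc 1 and 3.84 without Myc 3. Its mean log2 level was 10.999, 10.11 and 9.82 on the Myc TTP arrays, 6.10, 7.43 and 11.29 on Myc arrays, 12.53, 12.92 and 10.94 on TTP arrays and 12.06, 12.48 and 11.52 on wild-type arrays. Myc 1 and 2 were the lowest of the 12, and Myc 3 lay above all Myc TTP arrays. Ngp, a granule protein of neutrophils, had 2.16 ± 1.36, and S100a8, a subunit of calprotectin, 1.59 ± 0.97.

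Erythroid genes had a median of 1.19 over 13 genes and plasmacytoid dendritic cell genes 1.27 over 11. The erythroid median was 0.27 without TTP 3, 0.36 without Myc 2, 0.49 without Myc 1, 0.76 without Myc TTP 2 and 2.26 without Myc 3, and that of the dendritic cell genes ran between 0.86 and 1.81. The erythroid list averaged 8.14, 7.90 and 5.82 on the Myc TTP arrays, 4.93, 4.78 and 8.35 on Myc arrays, 9.97, 10.55 and 7.87 on TTP arrays and 9.55, 9.47 and 8.28 on wild-type arrays. Here Myc TTP 3 also lay below its group. The erythroid and megakaryocytic factor Nfe2 had 1.85 ± 1.95, and Cox6a2, a cytochrome oxidase subunit in the dendritic cell list, 1.76 ± 0.62. The natural killer and T-cell list had a median of 0.57 over 15 genes, with 2.77 ± 1.41 for the protease gene Gzma, and the monocyte list 0.54 over 14. The basophil, mast, stem and megakaryocyte list had 0.42 over 9, with 2.54 ± 1.46 for the basophil protease gene Mcpt8. These 3 medians were below 0 without TTP 3 (-0.05, -0.07 and -0.12), and with other arrays left out they reached 1.22, 0.99 and 1.01. Mean levels of the natural killer and T-cell list were 4.84 to 5.88 in Myc TTP, 3.83 to 5.80 in Myc, 5.67 to 7.87 in TTP and 6.37 to 7.32 in wild type. The plasmacytoid dendritic cell list averaged 8.61 to 9.34 in Myc TTP, 7.68 to 9.33 in Myc, 9.23 to 10.65 in TTP and 9.88 to 10.93 in wild type. The monocyte list averaged 7.49 to 8.31 in Myc TTP, 6.58 to 8.33 in Myc, 8.39 to 10.25 in TTP and 8.85 to 9.73 in wild type, with its marker Cd14 above the floor on 1 array. In bulk samples fewer cells of a type and less RNA per cell cannot be told apart, and the part of these cells in the interactions of other genes was not tested.

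**Figure D4:**
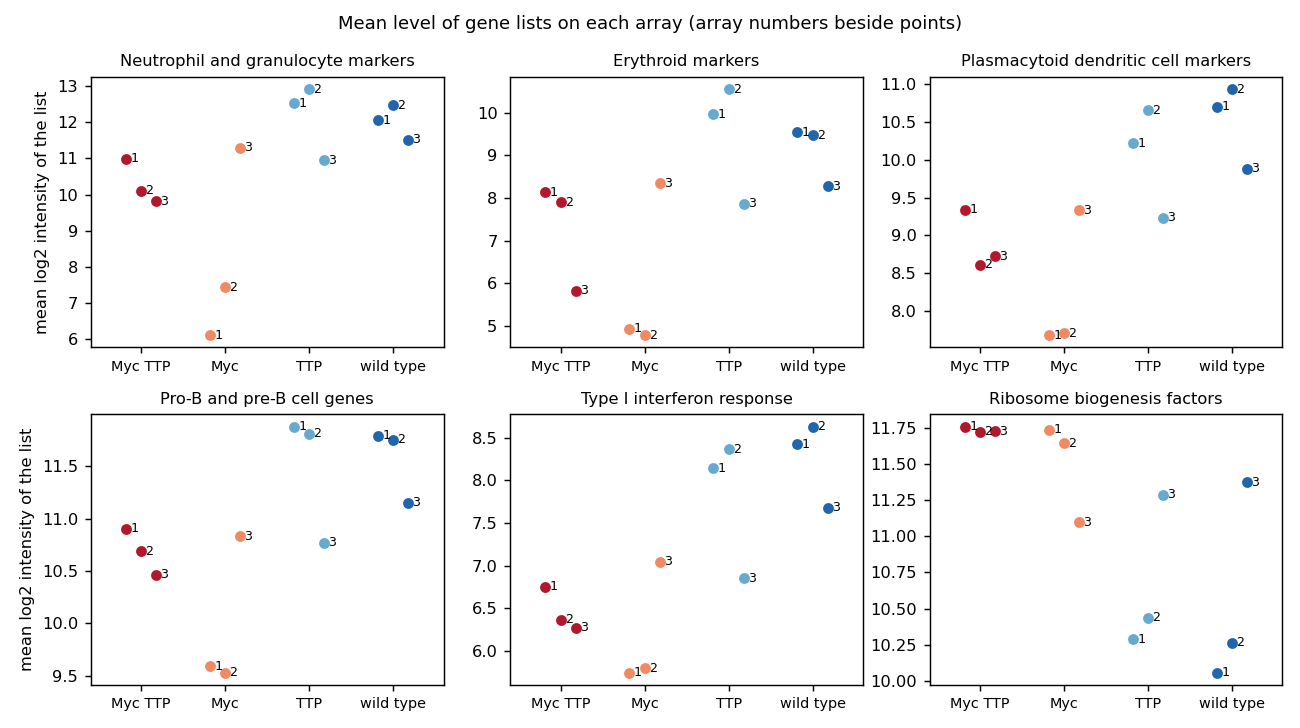
Points are the mean log2 intensity (y axis) of the tested members of 6 gene lists on each array, in the order Myc TTP, Myc, TTP and wild type, with array numbers beside them. For neutrophil markers Myc 1 and 2 lie at 6.10 and 7.43 and Myc 3 at 11.29, within the range of the other groups.

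Without the 4 arrays numbered 3, the interaction passed the threshold in 235 genes, 226 positive (2.20% of those tested) and 9 negative (0.0875%). With a common median as well, an alternative chosen after seeing the data, 68 positive (0.661%) and 5 negative genes (0.0486%) passed, and 72 of these 73 were among the 235. All 235 had the same sign with all arrays, and 55 had an unadjusted p under 0.05 there. In the 226 positive genes the median of Myc minus wild type was -3.53 on these arrays, so they were mostly genes low in Myc cells. Of the 226, 32 were in the lists of other marrow cells, which held 79 tested genes, and 14 in the B-lineage lists, which held 64. With just TTP 3 and wild type 3 left out 0 genes were called, with 959 positive and 129 negative at an unadjusted p under 0.05.

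The smallest p-values among these calls included erythroid genes, of which 7 of 13 were called as positive on either scaling. Among all genes the share was 2.20%, and 0.661% with a common median. Of 17 neutrophil genes 14 were called, and 4 with a common median, against the same shares of all genes. Some neutrophil genes were below the floor on Myc 1, such as Mmp9 at 3.47 and Elane at 3.56. Car2, carbonic anhydrase of red cells and other tissues, measured 11.51 and 11.53 on Myc TTP arrays 1 and 2, 7.86 and 7.63 on Myc arrays 1 and 2, 13.44 and 13.66 on TTP arrays 1 and 2 and 12.93 and 12.80 on wild-type arrays 1 and 2. Its interaction was 3.09 ± 0.18 (adjusted p = 0.000243). Klf1, the master regulator of erythroid genes, had 5.01 ± 0.33 (adjusted p = 0.000332), a value that rests on Myc arrays 1 and 2 at levels below the floor. The same genes had 1.19 ± 1.53 and 1.88 ± 2.34 with all arrays. On the array labelled Myc 3 they had 12.37 for Car2 and 9.16 for Klf1, and Myc TTP 3 had 4.46 for Klf1.

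The 9 negative calls without the arrays numbered 3 were Chst7, Kcnn4, Myc, S100a10, Gch1, S100a6, Ccnd1, Prkar2a and Stac2, of which Chst7, S100a10, Gch1, Prkar2a and Stac2 were named after their values were seen. Chst7, a carbohydrate sulfotransferase, measured 3.81 and 4.21 on Myc TTP arrays 1 and 2, 7.25 and 7.19 on Myc arrays 1 and 2, 2.63 and 3.19 on TTP arrays 1 and 2 and 2.50 and 2.75 on wild-type arrays 1 and 2. It was above the floor on both Myc arrays and below or near it elsewhere. S100a10, the annexin A2 partner and a relative of S100a6, had 12.87 and 12.98 on Myc TTP arrays 1 and 2, 13.54 and 13.54 on Myc arrays 1 and 2, 12.78 and 12.90 on TTP arrays 1 and 2 and 12.75 and 12.78 on wild-type arrays 1 and 2. Of these 8 arrays Myc 1 and 2 were the highest for S100a10, with an interaction of -0.69 ± 0.13 (adjusted p = 0.0364).

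**Figure D5:**
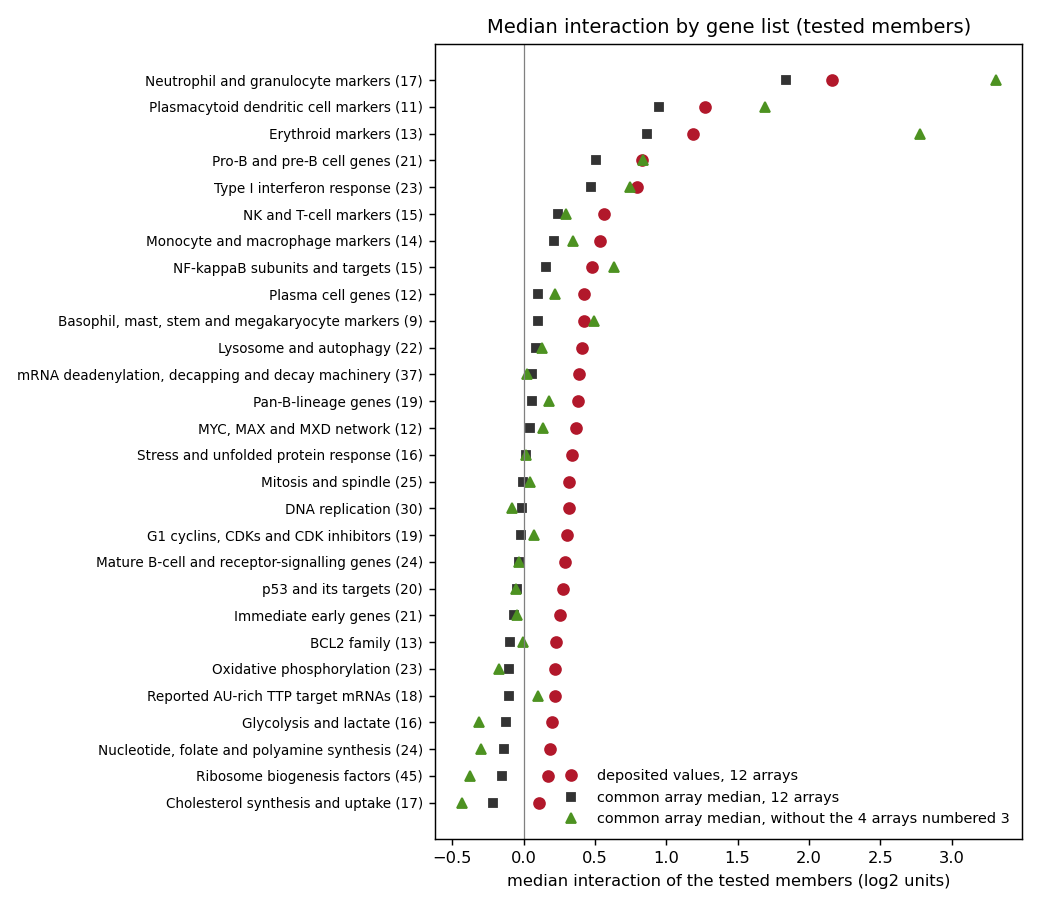
Points are the median interaction (x axis, log2 units) of the tested members of each gene list, with their number in brackets, for deposited values, for a common array median and for a common median without the 4 arrays numbered 3. Neutrophil markers have the highest median in all 3 settings (2.16 for deposited values), and ribosome biogenesis and cholesterol genes lie at the low end (0.17 and 0.11).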

How the data were processed

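Total RNA of B220-selected marrow cells was hybridised to 12 arrays. The authors deposited intensity on a linear scale, summarised with GCRMA per the submitters' processing notes with no version named. Such values are normalized between arrays, so a change in total RNA per cell cannot be seen. For arrays, their number limits the precision.

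Log2 of the deposited intensity was taken with no pseudocount. Of 45101 probe sets 34958 had a single symbol, 932 several and 9211 none, and 34754 were found in the RefSeq table of GRCm38.p6 used to update symbols. For each gene the probe set of highest mean was used. Genes above log2 4 on at least 3 arrays were tested, which left out 7907. limma 3.58.1 (R 4.3.3) tested the interaction (lmFit, contrasts, eBayes with an intensity trend, 8 residual degrees of freedom), two-sided, with Benjamini-Hochberg adjustment over 10287 genes. All adjusted p-values are from limma. Errors beside interactions and differences are standard errors of the fit. The script was tested on simulated data with large planted interactions, independent noise and the spread of each gene capped at the median. That checks the code and not its power in these data.

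Named genes were the 10 with the smallest p in each direction, the 2 members with the smallest p in each of 29 lists (651 entries), Myc and the Zfp36 family, plus genes at the ends of lists and among the calls without arrays numbered 3, named after their values were seen. The members and lists were chosen with earlier results of these data known. Same-numbered arrays of different groups had residual correlations between -0.651 and 0.821. They were above 0.1 in 7 of 18 pairs, against 15 of 36 pairs of unlike numbers, so the numbers were not used to pair the arrays. Both extremes were between arrays numbered 3, -0.651 for Myc with TTP and 0.821 for TTP with wild type. By log2 level, Myc 3 correlated at 0.994 with TTP 3 and 0.992 with wild type 3, but at 0.954 with Myc 1 and 0.962 with Myc 2. Promoter windows are from RefSeq.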

Additional observations from a re-analysis of the deposited data

How the results depend on the processing

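The count of 0 called genes held without each array in turn, with a replicate block, without an intensity trend, with robust moderation, without moderation, with no filter, with a floor of log2 6, with quantile normalization and at an adjusted p under 0.1. It did not hold when all probe sets were tested separately (1 called, 2122 positive and 101 negative at an unadjusted p under 0.05), with array weights (176 called, 2485 positive and 218 negative, in a fit that stopped before convergence), without the arrays numbered 3 (235 called, 189 negative) or without them and with a common median, added after seeing the data (73 called, 608 negative, median 0.019). The cause was not tested. Positive genes at an unadjusted p under 0.05 numbered 148 and negative ones 210 with a common median (median 0.015), and 179 and 181 with quantile normalization (median 0.044). Without wild type 3 and TTP 3 there were 129 negative genes, and with no filter the median was 0.16, where more genes near the floor entered. Leaving out 1 array at a time gave 663 to 1589 positive and 27 to 115 negative genes and medians of 0.24 to 0.40. The replicate block, which the arrays' numbers do not justify, gave 1212 positive and 42 negative genes and 0 called, and changed no call.

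Over the alternatives, the adjusted p of Slc37a1 ran between 0.00738 and 0.711, and those of Psme4, Ypel2, Rsph1, S100a6, Kcnn4, Ccnd1 and Myc between 0.0196 and 1.00. The sign turned for few genes. With a common median it turned for Atf4 (-0.0036), Slc16a1 (-0.024) and Tfrc (-0.10), and with the arrays numbered 3 left out as well for Atp5c1 (-0.0080), Plcg2 (-0.059), Atf4 (-0.0082), Bcl2l11 (-0.0040), Slc16a1 (-0.030) and Tfrc (-0.011). With the probe set of largest SD it turned for Cnot8 (-0.33), Stk24 (0.25), Ulk1 (-0.014), Csf1r (0.65), Slc2a1 (0.36), Atf4 (-0.28) and Zfp36l1 (0.29). Array weights turned Zfp36l2 (0.082) and Zfp36l1 (0.21). Zfp36l1 was 0.23 without the arrays numbered 3 and 0.029 without wild type 3 and TTP 3. Leaving out 1 array at a time gave -0.62 to 0.069 for Zfp36l2, positive without Myc TTP 1, and -0.31 to 0.32 for Zfp36l1, positive without Myc TTP 3, Myc 3, TTP 1, TTP 2 or wild type 3. As a difference of linear intensities it turned for Mcpt8 (-53.1), Nfe2 (-359) and Zfp36l1 (601). With 3 arrays a group, an interaction of about 0.70 log2 units is the size of a typical 95% half-width.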

Other observations

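Some probe sets of Ighm, the gene of the immunoglobulin mu heavy chain, separated the wild-type arrays from all the others, a pattern that was noticed after the data were seen. When 18765 single-symbol probe sets above the floor were tested separately with limma, the 1 that was called was an Ighm probe set that passed the floor through the wild-type arrays alone. A probe set that enters in this way had to differ, so its interaction of 3.56 is given as a description. Its log2 intensity was 2.93, 3.04 and 2.83 on the Myc TTP arrays, 3.22, 3.02 and 2.94 on Myc arrays, 2.73, 2.94 and 2.92 on TTP arrays and 7.20, 6.50 and 5.97 on wild-type arrays. All 9 transgenic arrays were below the floor of log2 4, so the interaction is set by the wild-type arrays. A second Ighm probe set had 3.89, 4.70 and 4.74 on the Myc TTP arrays, 4.71, 4.69 and 6.41 on Myc arrays, 4.47, 5.15 and 6.13 on TTP arrays and 10.86, 10.004 and 7.96 on wild-type arrays. It too was higher on every wild-type array, and wild type 3 was the lowest of its group. The Ighm probe set used in the report measured between 14.29 and 15.19 on all 12 arrays, with an interaction of 0.30 ± 0.21, and -0.02 after a common median. What the first 2 probe sets read in the mu transcript was not given in the sources used here.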
